A study of Mus musculus with 4 samples.

Results

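The 7 genes described here encode the sheddase ADAM17, its relative ADAM10, the inactive rhomboid proteins iRhom1 and iRhom2 (genes Rhbdf1 and Rhbdf2), the cytokine TNF and both of its receptors (genes Tnfrsf1a and Tnfrsf1b). They are 7 of the 32227 genes listed in the count matrices. They were chosen by the measured difference between surgery and sham replicates in these cells together with their shared function, so their surgery values are given as a description and carry no test. The rule names the genes and sets no threshold on their values.

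The cells were bone marrow cells of mice with the genotype label WT, sorted for cKit among lineage-negative cells, both Sca1-positive and Sca1-negative, which takes in haematopoietic stem and progenitor cells. Every mouse, controls included, had received E0771 cells, a mouse breast cancer line, 3 days before the operation, and marrow was taken 9 days after it. The sham group had sham surgery and the surgery group had ligation of the femoral artery, which cuts the main blood flow to the hind limb. Each group had 4 replicates marked by hashtags, 2 in each of 2 captures (batch 1 and batch 2), and the study asked how ischaemic injury acts on these progenitors. The ages of the mice are not given in the labels, nor is it said whether a replicate was 1 animal or a pool, so the spread between replicates may be partly technical. By the treatment labels 1 capture would hold only ligation and 1 only sham cells, but hashtag names put both groups in each capture. The hashtag names were followed, and every statement about surgery rests on them.

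ADAM17 is a membrane-bound metalloprotease that cuts the outer part of other membrane proteins off the cell. It was first known as the TNF-converting enzyme, because it releases soluble TNF from its membrane-bound precursor, and it also sheds both TNF receptors and the IL-6 receptor. ADAM17 reaches the cell surface only with the help of iRhom1 or iRhom2, the latter being the main form in blood cells, while ADAM10 uses other partners, the tetraspanins, and shares part of its substrates. In marrow, TNF acts on stem and progenitor cells through TNFR1, which carries a death domain, and TNFR2, which does not.

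The data were 26881 cells, 14644 in batch 1 and 12237 in batch 2, with 19450143 to 51712572 UMIs (molecules counted once) per replicate. Median depth per cell was 5860.5 to 7206.5 UMIs in batch 1 and 10291 to 12393.5 in batch 2. Levels are in CPM, the summed UMIs of a gene scaled to a common total over all genes of that replicate and class. Cells were clustered and 12 classes were named from marker genes. A class name stands for cells like that type, and none of the 7 genes was among the markers or the genes used for clustering. The lymphoid-primed class was mixed by markers. In its sham replicates the monocyte markers summed to a mean of 2733 CPM and its own markers to 2669 CPM. Finer clustering gave this name to 721 cells, against 1776 here. The class of haematopoietic stem cells (HSC) and early multipotent cells joined cluster 4 (2665 cells), led by Hlf, Mecom and Adgrl4, with cluster 15 (1641 cells). Of the HSC markers used for naming, 7 were raised in cluster 4 and 4 in cluster 15. In cluster 15 none of them was among the leading genes, which included Zg16, Trib2 and Apoe, and the marker score was low. Sorting should remove lineage-positive cells, but classes like B cells (2973 cells), mature neutrophils (165 cells) and T, NK or innate lymphoid cells (543 cells) were present. Most B cells were in clusters 9 and 12 (1010 and 1170 cells), with the precursor genes Igll1 and Vpreb1 among their leading genes. The mature neutrophil class was led by Ngp, Camp and Ltf, and its maturity was not tested. Its neutrophil-granulocyte markers still summed to a mean of 29218 CPM in sham replicates, against 42525 CPM in the neutrophil-granulocyte class. No cluster was like macrophages, endothelial or stromal cells, or epithelial cells, and 4 of the cell barcodes used occurred in both captures. Batch 1 sham replicate 1 stood apart for Rhbdf2, and the class means and fitted differences of that gene are also given without it.

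The promoter sequences of the 2 genes whose surgery levels lay above every sham level in a whole class are shown first; the data measure transcripts of these genes, and the windows show the sequence from which their transcription starts. RefSeq (GRCm38.p6) gave promoters for 5 of the 7 genes, Rhbdf1 and Rhbdf2 being without an entry. Each run is the 250 bases before the transcription start, 5′ to 3′ on the gene's strand. Capitals mark the GC box GGGCGG, bound by Sp factors, the ETS core CCGGAA and the TATA box TATAAA, each searched on both strands with overlaps allowed.
Adam17, chr12:21373633-21373882, minus strand: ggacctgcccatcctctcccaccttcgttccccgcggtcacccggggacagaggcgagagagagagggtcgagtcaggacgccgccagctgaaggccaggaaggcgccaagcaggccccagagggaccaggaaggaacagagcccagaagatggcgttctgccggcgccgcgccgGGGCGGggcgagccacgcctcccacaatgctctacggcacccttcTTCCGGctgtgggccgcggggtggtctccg
Tnfrsf1b, chr4:145246871-145247120, minus strand: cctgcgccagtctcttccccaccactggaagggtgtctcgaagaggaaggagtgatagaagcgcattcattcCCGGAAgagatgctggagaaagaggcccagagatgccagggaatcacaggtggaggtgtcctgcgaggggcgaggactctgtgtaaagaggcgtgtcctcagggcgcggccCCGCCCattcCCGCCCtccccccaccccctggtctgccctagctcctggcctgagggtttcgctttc
The Adam17 window held 1 GC box and 1 ETS core and no TATA box, at 70.4% G or C. The Tnfrsf1b window held 2 GC boxes and 1 ETS core and no TATA box, at 62.8% G or C. Of the other windows, that of Tnf alone held a TATA box (1, with 1 GC box), that of Adam10 held 3 GC boxes, and that of Tnfrsf1a held 1 ETS core. Among 32851 promoter windows of the same length, 32.7% held a GC box, 12.03% an ETS core and 12.4% a TATA box. These are matches of letters and say nothing of binding.

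Adam17 (chromosome 12, 21323509 to 21373632, minus strand, GENCODE release M21 on GRCm38) was read in all 12 classes, with 14909 UMIs in all cells. The mean over 8 replicates was highest in basophil-mast cells, at 131 ± 20.05 CPM (SD, n = 8). The eosinophil class followed at 98.4 ± 56.3 CPM, the HSC class at 98.0 ± 22.9 CPM and dendritic cells at 80.9 ± 17.4 CPM. T, NK or innate lymphoid cells had 73.1 ± 25.8 CPM, B cells 56.9 ± 7.85 CPM, lymphoid-primed cells 55.7 ± 6.81 CPM and monocyte progenitors 46.4 ± 5.49 CPM. Lowest were erythroid cells at 39.4 ± 5.12 CPM, megakaryocyte cells at 38.5 ± 8.38 CPM, neutrophil-granulocyte progenitors at 37.9 ± 4.08 CPM and mature neutrophils at 33.6 ± 19.8 CPM. No pair of neighbours in this order differed beyond the spread between replicates (0 of 11 pairs after adjustment). The highest class differed from the lowest by 2.20 ± 1.03 (SD) on the log2(CPM + 1) scale, in the same direction in 8 of 8 replicates (two-sided exact sign-flip permutation test, p = 0.0078, the smallest that 8 replicates allow; adjusted p = 0.0352 over 72 tests). The lowest class rested on 44 UMIs. Here and for the genes below, class pairs were picked by the order of the same values, and the p-values do not allow for that choice.

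After surgery the Adam17 level was higher in the HSC class. The 4 sham replicates had 77.6 and 77.8 CPM in batch 1 and 72.5 and 81.2 CPM in batch 2. The 4 surgery replicates had 120.3 and 127.3 CPM in batch 1 and 119.1 and 108.3 CPM in batch 2. Every surgery replicate thus lay above every sham replicate, in each batch and across batches, with means of 77.3 ± 3.62 and 119 ± 7.86 CPM. The fitted difference was 0.62 ± 0.06 (log2 surgery over sham ± SE), a 1.53-fold higher level, with log2 ratios of 0.67 within batch 1 and 0.56 within batch 2. Adam17 was the only one of the 7 genes past an adjusted p of 0.05 in any comparison, 1 of 55 fitted pairs of gene and comparison. In the HSC comparison 0.0916% of all genes tested were past that threshold. Since the genes were chosen with this contrast in view, nothing is read from that count.

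**Figure D1:**
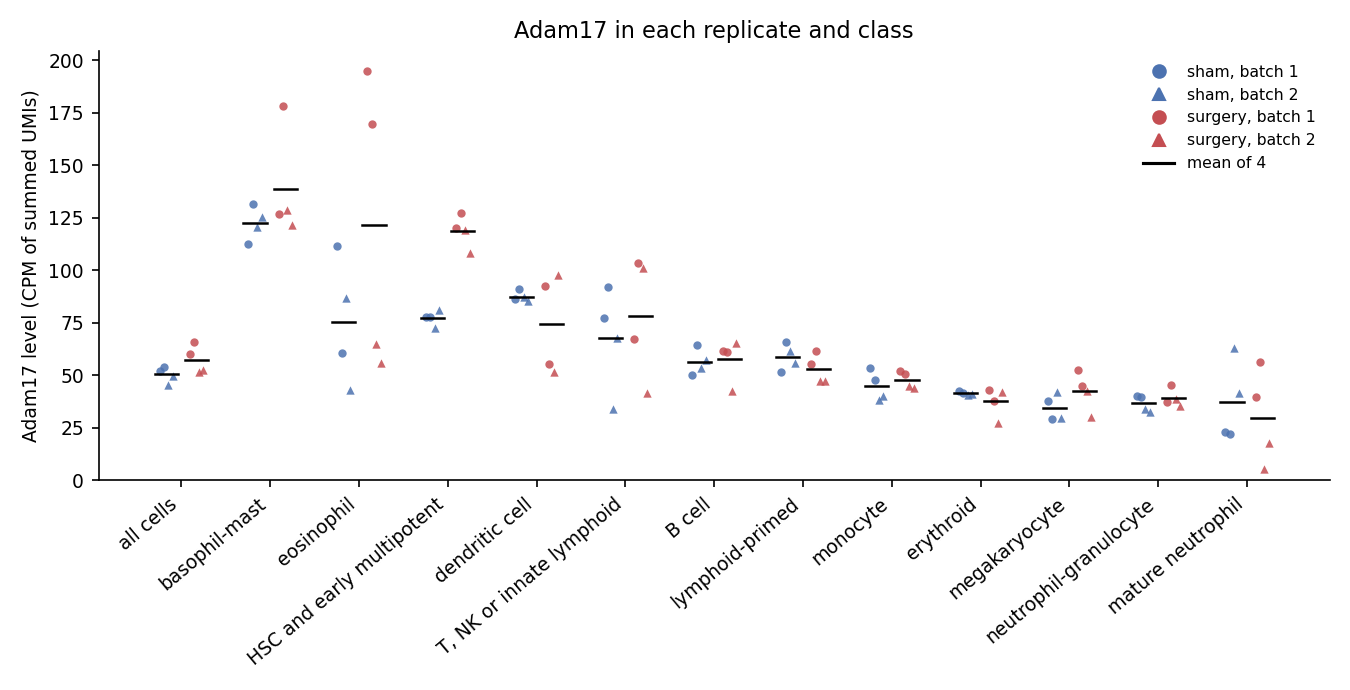
Adam17 level (CPM of summed UMIs, linear axis from 0) in each of 8 replicates, for all cells and 12 classes in the order of their mean; circles are batch 1, triangles batch 2, and black bars the mean of 4 replicates. In the HSC and early multipotent class the surgery values of 108.3 to 127.3 CPM lie above the sham values of 72.5 to 81.2 CPM, and in each other class the groups overlap.

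The difference within the class lay in cluster 4, the part led by stem cell markers. This cluster was also the deeper one, with a median of 9253 UMIs per cell against 3621 in cluster 15. There the sham replicates had 89.1 and 81.5 CPM in batch 1 and 75.4 and 89.1 CPM in batch 2, and the surgery replicates had 140.2 and 150.4 CPM in batch 1 and 136.1 and 121.9 CPM in batch 2. The group means were 83.8 ± 6.64 and 137 ± 11.8 CPM, and the fitted log2 difference without cluster 15 was 0.71 ± 0.07, an alternative chosen after seeing the data. In cluster 15 the groups overlapped, with 56.1 ± 12.3 CPM in sham and 58.0 ± 9.96 CPM in surgery replicates. Of 24 clusters with cells enough in every replicate, cluster 4 was the only one in which all surgery values exceeded all sham values for Adam17, and none showed the reverse. The share of all genes that do so was not computed by cluster, and nothing is read from this count. The surgery mean was the higher one in 18 of 24 clusters. Unnamed cluster 6 had 93.3 ± 30.9 CPM in sham and 142 ± 63.8 CPM in surgery replicates. Its nearest class by markers was the HSC class, but only weakly, with 2 HSC markers raised and 0 among its leading genes. Its median depth was 2691 UMIs, and what cells it holds is not known. Eosinophil cluster 25 had 75.5 ± 30.2 and 121 ± 71.4 CPM, and the groups overlapped in both. Differences between clusters were not tested.

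**Figure D2:**
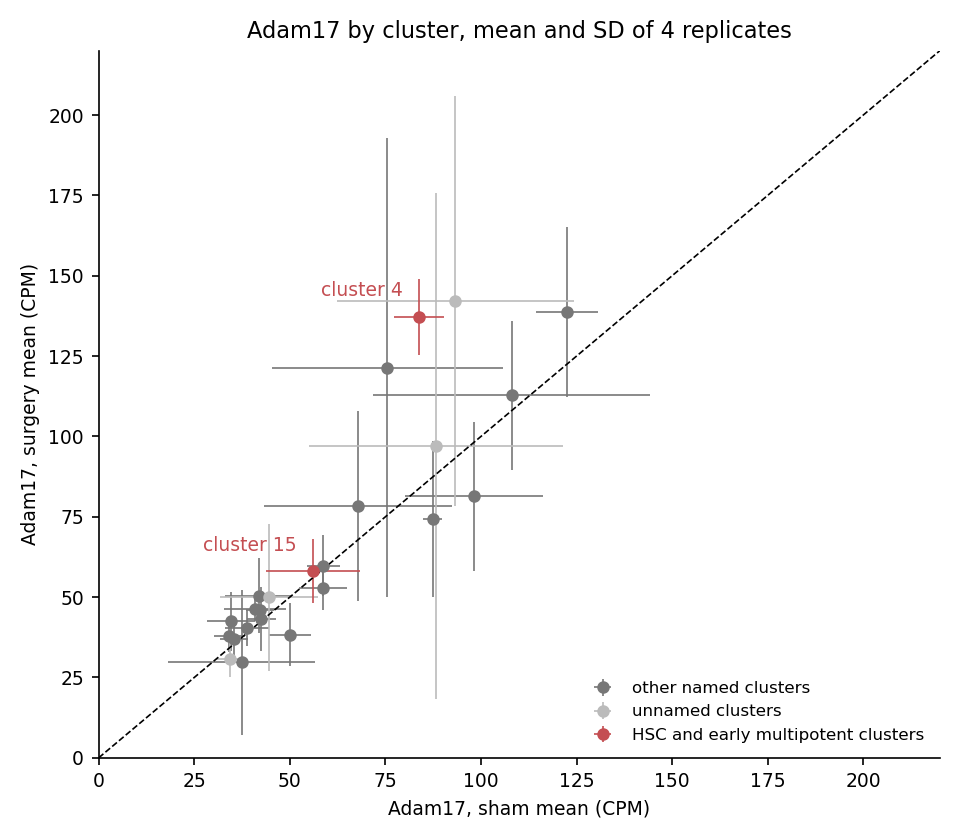
Adam17 mean level in surgery (vertical axis, CPM) against sham (horizontal axis, CPM) for 24 clusters; points are means and bars the SD of 4 replicates, and the dashed line marks equal levels. Cluster 4 lies above the line at 83.8 against 137 CPM, and cluster 15 lies near it at 56.1 against 58.0 CPM.

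The same counts were also read as shares of cells with an Adam17 UMI, which is not a separate measurement. Thinning each cell to 2000 UMIs left out the 377 of 4306 HSC class cells with fewer, in every replicate more from cluster 15 than from cluster 4. Of the cells kept, 12.9 to 15.03% in the sham replicates and 16.4 to 22.2% in the surgery replicates had an Adam17 UMI, ranges that do not overlap. Without thinning the shares were 32.8 to 45.4% and 43.7 to 52.1%, ranges that overlap. In cluster 4 the thinned shares were 13.2 to 17.4% and 19.5 to 26.9%. No class here is known to lack Adam17. In erythroid cells, among the lowest, the thinned share was 8.03% (median depth 15643 UMIs, against 6970 in the HSC class). Cluster 4 made up 57.3 to 63.8% of the class in sham and 55.9 to 64.4% in surgery replicates, so the makeup of the class by cluster overlapped between groups.

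Markers of other cell types were read in the same sums of the HSC class. The summed level of the 10 basophil-mast markers (8 detected), whose own class had the highest Adam17 level, was 422 to 513 CPM in sham and 465 to 500 CPM in surgery replicates. The 8 eosinophil markers summed to 19.3 to 33.3 and 22.3 to 38.4 CPM. The 13 HSC markers overlapped too, at 2109 to 2508 and 2088 to 2647 CPM. Of 15 marker lists, only the 10 endothelial or stromal markers, all detected, did not overlap between the groups. They were at 139 to 146.4 CPM in sham and 146.5 to 154 CPM in surgery replicates, a narrow gap. Their part in the Adam17 difference was not tested.

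Over all cells the Adam17 difference was smaller. Sham replicates had 52.2 and 53.9 CPM in batch 1 and 45.5 and 49.8 CPM in batch 2, and surgery replicates had 60.0 and 66.0 CPM and 51.3 and 52.4 CPM. The groups did not overlap within either batch but did across batches (means 50.4 ± 3.61 and 57.4 ± 6.88 CPM; log2 difference 0.20 ± 0.04). The HSC class held 22.8% of all Adam17 UMIs against 12.7% of all UMIs. With that class left out, a choice made after seeing the data, Adam17 was at 46.4 ± 3.84 CPM in sham and 48.4 ± 6.04 CPM in surgery replicates, with overlapping groups and log2 ratios of 0.10 in batch 1 and 0.01 in batch 2. The share of cells in the HSC class was 14.4 to 18.2% in sham and 15.3 to 18.2% in surgery replicates. Lymphoid-primed cells, a class mixed by markers, had 58.7 ± 6.21 CPM in sham and 52.8 ± 6.84 CPM in surgery replicates, with a log2 difference of -0.18 ± 0.12. In the 9 further classes where Adam17 could be fitted the log2 difference lay between -0.25 and 0.52 with overlapping groups; the upper value came from the eosinophil class, in which 1 replicate had only 10 cells.

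Genes next to Adam17 were read to see whether the difference extended along the chromosome. The 3′ end of Iah1 (21316389 to 21323819, plus strand) overlaps that of Adam17 by 311 bases on the opposite strand, and the sources used here do not say how strands were counted, so UMIs of both genes could be mixed there. Iah1 had 21.5 ± 2.89 CPM in sham and 24.3 ± 2.50 CPM in surgery replicates of the HSC class (log2 difference 0.16 ± 0.10). Cpsf3, which encodes the nuclease that cuts pre-mRNA 3′ ends, had 63.1 ± 4.62 and 60.9 ± 5.11 CPM (-0.03 ± 0.08). Ywhaq, a 14-3-3 protein gene, had 257 ± 16.3 and 277 ± 13.04 CPM (0.11 ± 0.04). Itgb1bp1 and Asap2 differed by 0.10 ± 0.12 and -0.03 ± 0.13. None of these 5 passed the threshold in edgeR's quasi-likelihood test (adjusted p = 0.9997 for each). Gm49586, a non-coding gene whose annotated span (21373765 to 21374196, plus strand) runs through the promoter window printed above, was at 0.30 ± 0.21 CPM in sham and 0.16 ± 0.23 CPM in surgery replicates, too low to be fitted in this class, and 2 further non-coding genes within 250 kb, Gm4419 and Gm20535, were at 0.89 and 0.25 CPM in sham replicates.

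Adam10 (chromosome 9, 70678997 to 70780229, plus strand) had a different order of classes. It was highest in megakaryocyte cells at 179 ± 16.7 CPM and erythroid cells at 159 ± 10.7 CPM, followed by B cells at 143 ± 10.3 CPM and the HSC class at 137 ± 14.2 CPM. T, NK or innate lymphoid cells, basophil-mast cells and mature neutrophils had 111 ± 10.6, 107 ± 16.7 and 104 ± 29.1 CPM. Lymphoid-primed cells had 91.9 ± 6.19 CPM, eosinophil cells 86.8 ± 22.1 CPM, monocyte progenitors 82.5 ± 5.81 CPM, neutrophil-granulocyte progenitors 73.2 ± 3.81 CPM and dendritic cells 67.4 ± 21.1 CPM. Of 11 neighbouring pairs 2 differed: the HSC class was above T, NK or innate lymphoid cells by 0.30 ± 0.16 (SD, log2), and monocyte were above neutrophil-granulocyte progenitors by 0.17 ± 0.11, each in 8 of 8 replicates (exact sign-flip permutation test, adjusted p = 0.0352).

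Surgery and sham levels of Adam10 were close over all cells and differed more in some small classes. Over all cells the sham replicates had 106.6, 110.3, 102.5 and 99.0 CPM and the surgery replicates 103.8, 109.0, 99.99 and 101.03 CPM, with a log2 difference of 0.00 ± 0.03 to 2 decimals. Means in the HSC class were 131 ± 8.68 and 142 ± 17.7 CPM (0.10 ± 0.07), with overlapping groups. Mature neutrophils had 87.5 ± 16.8 CPM in sham and 121 ± 30.6 CPM in surgery replicates (0.44 ± 0.27), basophil-mast cells 98.1 ± 8.71 and 117 ± 18.6 CPM (0.27 ± 0.11), and eosinophil cells 98.3 ± 24.4 and 75.4 ± 13.9 CPM (-0.29 ± 0.31), each with overlapping groups. Lymphoid-primed cells were the only class in which the groups did not overlap: the sham values of 104.7, 90.4, 93.5 and 95.5 CPM all lay above the surgery values of 90.2, 84.1, 87.7 and 89.4 CPM, the nearest by a fraction of 1 CPM. There the fitted log2 difference was -0.10 ± 0.10. The 10 monocyte markers, all detected, summed to 2587 to 2902 CPM in sham and 2167 to 2546 CPM in surgery replicates of this class. Those ranges do not overlap, and the part of these markers in the Adam10 difference was not tested. In this class 1.43% of all genes had every surgery replicate below every sham replicate, and 0.315% passed the adjusted threshold in either direction.

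The iRhom genes differed from each other in detection. Rhbdf1 (chromosome 11, 32209585 to 32222300, minus strand) had 34 UMIs in all 26881 cells, 20 in sham and 14 in surgery replicates, and could not be fitted in any comparison. Its largest class count was 9 UMIs in megakaryocyte cells. In 5 of 12 classes it had no UMI, among them 0 of 1769 erythroid cells, which allows a share of up to 0.170% of cells with a UMI (3 counts; counting error only). A surgery difference was not detectable at this depth.

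Rhbdf2 (chromosome 11, 116598165 to 116627019, minus strand) had 3215 UMIs and was highest in B cells at 41.8 ± 8.55 CPM. Eosinophil cells (30.7 ± 50.1 CPM), basophil-mast cells (26.9 ± 8.17 CPM), mature neutrophils (24.1 ± 8.18 CPM) and T, NK or innate lymphoid cells (21.8 ± 43.2 CPM) came next. Dendritic cells had 15.7 ± 15.8 CPM, lymphoid-primed cells 12.1 ± 7.87 CPM, monocyte progenitors 11.8 ± 3.63 CPM and the HSC class 10.8 ± 5.48 CPM. Erythroid cells, neutrophil-granulocyte progenitors and megakaryocyte cells were lowest, at 8.12 ± 1.85, 7.29 ± 3.25 and 6.19 ± 7.20 CPM. No neighbours in this order differed (0 of 11 pairs), while B cells exceeded megakaryocyte cells by 3.01 ± 1.04 (SD, log2) in 8 of 8 replicates (exact sign-flip permutation test, p = 0.0078, adjusted p = 0.0352).

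The spread of Rhbdf2 came mainly from batch 1 sham replicate 1. Over all cells it had 23.1 CPM, against 9.13 to 13.2 CPM in the 7 others, and it was the highest of 8 in 10 of 12 classes. An Rhbdf2 UMI was found in 16.2% of its cells and in 8.35 to 14.9% of cells in the others, and its 10 highest cells held 7.56% of its Rhbdf2 UMIs, within the 4.95 to 8.23% of the others. Without this replicate the order of class means changed. Over the 7 others B cells stayed highest at 38.9 CPM, followed by basophil-mast cells at 24.8 CPM and mature neutrophils at 24.2 CPM. Dendritic and eosinophil cells had 13.8 CPM each, monocyte progenitors 10.7 CPM, lymphoid-primed cells 9.76 CPM, the HSC class 9.08 CPM and erythroid cells 7.75 CPM. T, NK or innate lymphoid cells moved to 6.60 CPM, beside neutrophil-granulocyte progenitors at 6.18 CPM and megakaryocyte cells at 3.79 CPM. B cells then exceeded megakaryocyte cells by 3.24 on the log2(CPM + 1) scale, in 7 of 7 replicates, which was no longer past the adjusted threshold. No class comparison passed it with any 1 replicate left out, so this loss says nothing of the replicate itself. The extreme class values rested on few molecules, 15 UMIs for the 129 CPM of T, NK or innate lymphoid cells and 12 UMIs for the 149 CPM of eosinophil cells. This replicate also had 92 of 16852 genes more than 1.5-fold above each other replicate, against 7 to 67 in the others. With all replicates the log2 difference of surgery over sham for Rhbdf2 in all cells was -0.22 ± 0.24, and without this one it was 0.08 ± 0.13. For the HSC class these values were -0.23 ± 0.30 and 0.13 ± 0.23, for monocyte progenitors -0.03 ± 0.18 and 0.17 ± 0.14, and for neutrophil-granulocyte progenitors -0.24 ± 0.25 and 0.05 ± 0.19. In these 4 comparisons the direction thus depended on 1 replicate. It stayed below 0 without that replicate in lymphoid-primed cells (-0.52 ± 0.37 and -0.20 ± 0.35), erythroid cells (-0.27 ± 0.22 and -0.25 ± 0.23), basophil-mast cells (-0.22 ± 0.23 and -0.12 ± 0.23) and B cells (-0.23 ± 0.15 and -0.11 ± 0.15). With all 8 replicates the groups overlapped in every class.

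**Figure D3:**
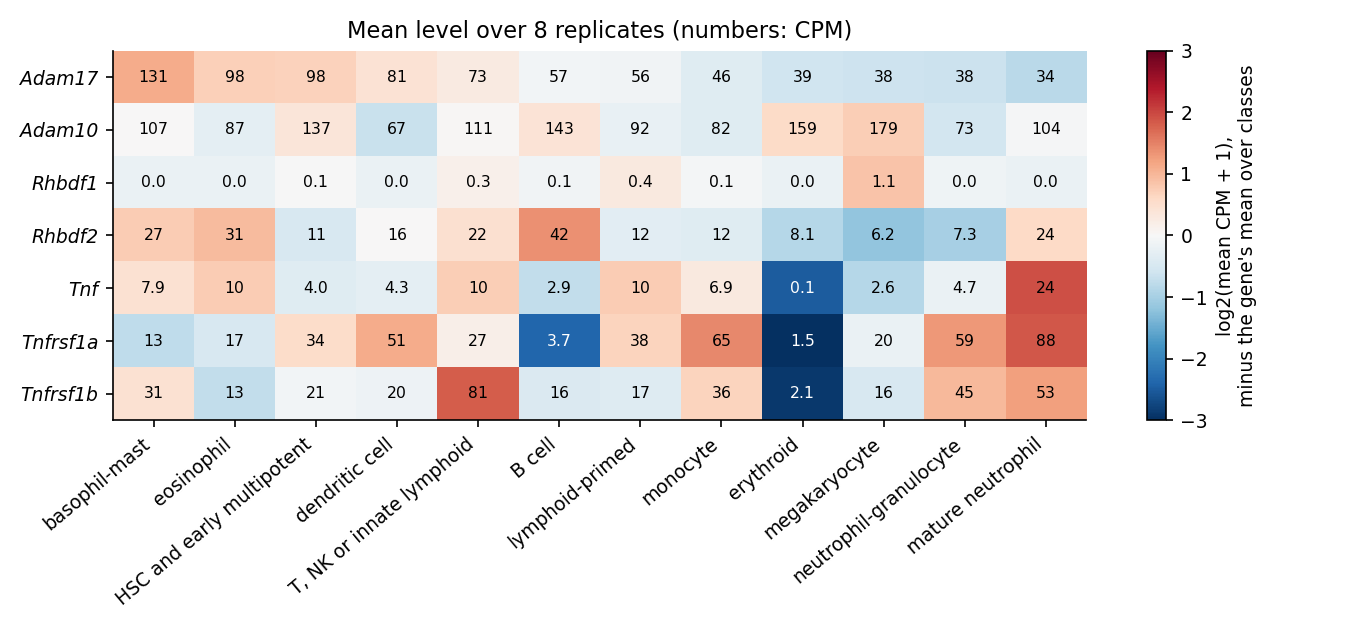
Mean level of each gene (rows) in 12 classes (columns) over 8 replicates; printed numbers are CPM, and colours show log2(mean CPM + 1) minus the gene's own mean over classes, so they compare classes within a gene and not genes with each other. Adam17 is highest in basophil-mast cells at 131 CPM, Adam10 in megakaryocyte cells at 179 CPM, and both receptor genes are near 2 CPM or below in erythroid cells.

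Tnf (chromosome 17, 35199381 to 35202007, minus strand) had 1599 UMIs in all cells. It was highest in mature neutrophils at 23.6 ± 12.04 CPM, which rested on 35 UMIs. Eosinophil cells had 10.1 ± 10.3 CPM, lymphoid-primed cells 9.95 ± 2.82 CPM, T, NK or innate lymphoid cells 9.77 ± 6.61 CPM, basophil-mast cells 7.93 ± 4.44 CPM and monocyte progenitors 6.91 ± 1.48 CPM. Neutrophil-granulocyte progenitors had 4.66 ± 0.763 CPM, dendritic cells 4.29 ± 8.04 CPM and the HSC class 4.004 ± 1.13 CPM. B cells, megakaryocyte cells and erythroid cells had 2.89 ± 1.31, 2.60 ± 1.46 and 0.142 ± 0.238 CPM, the last from 4 UMIs in 1769 cells. Monocyte progenitors exceeded neutrophil-granulocyte progenitors by 0.47 ± 0.19 (SD, log2(CPM + 1)), and megakaryocyte exceeded erythroid cells by 1.57 ± 0.65, each in 8 of 8 replicates (exact sign-flip permutation test, adjusted p = 0.0352; 2 of 11 neighbouring pairs).

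Tnf levels of surgery and sham replicates overlapped in every class. Over all cells the sham replicates had 4.7, 5.6, 6.4 and 5.4 CPM and the surgery replicates 4.7, 5.4, 5.5 and 6.7 CPM (log2 difference 0.02 ± 0.11). HSC class means were 3.78 ± 1.25 and 4.23 ± 1.12 CPM (0.04 ± 0.28), and in lymphoid-primed cells 8.72 ± 3.46 and 11.2 ± 1.59 CPM (0.42 ± 0.30). The wide errors reflect counts of 146 and 125 UMIs in these classes.

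Tnfrsf1a (chromosome 6, 125349362 to 125362484, plus strand), which encodes TNFR1, had its highest means in myeloid classes. It was highest in mature neutrophils at 88.0 ± 22.8 CPM, then monocyte progenitors at 64.5 ± 4.02 CPM, neutrophil-granulocyte progenitors at 58.6 ± 2.92 CPM and dendritic cells at 51.5 ± 27.4 CPM. Lymphoid-primed cells had 37.6 ± 5.14 CPM, the HSC class 34.4 ± 3.45 CPM, T, NK or innate lymphoid cells 26.6 ± 9.93 CPM and megakaryocyte cells 19.98 ± 5.56 CPM. Eosinophil and basophil-mast cells had 16.5 ± 7.94 and 13.3 ± 2.60 CPM, and B cells and erythroid cells 3.67 ± 1.93 and 1.47 ± 1.17 CPM. Of 11 neighbouring pairs 4 differed in 8 of 8 replicates (exact sign-flip permutation test, adjusted p = 0.0352). These were mature neutrophils above monocyte progenitors by 0.40 ± 0.31 (SD, log2(CPM + 1)), monocyte above neutrophil-granulocyte progenitors by 0.14 ± 0.07, basophil-mast cells above B cells by 1.71 ± 0.89, and B cells above erythroid cells by 0.93 ± 0.57. The first of these turned to -0.42 after thinning to 2000 UMIs per cell.

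Tnfrsf1a levels of surgery and sham replicates overlapped in every class across batches. Over all cells the sham replicates had 41.0 and 41.1 CPM in batch 1 and 46.5 and 49.7 CPM in batch 2, and the surgery replicates 47.9 and 45.9 CPM and 49.0 and 47.0 CPM. The groups overlapped across batches (log2 difference 0.11 ± 0.05). In the HSC class the means were 35.0 ± 3.81 and 33.8 ± 3.52 CPM (-0.06 ± 0.10). Within monocyte progenitors the batches ran in opposite directions. In batch 1 the sham values of 59.5 and 58.9 CPM lay below the surgery values of 67.7 and 67.8 CPM, and in batch 2 the sham values of 66.9 and 68.98 CPM lay above the surgery values of 61.4 and 65.2 CPM. Neutrophil-granulocyte progenitors showed the same split, with 55.7 and 56.4 CPM in sham below 63.2 and 59.5 CPM in surgery replicates of batch 1, and 59.8 and 61.2 CPM above 58.4 and 54.6 CPM in batch 2. The fitted differences over both batches were 0.05 ± 0.06 and 0.01 ± 0.06. Mature neutrophils had 79.1 ± 26.03 CPM in sham and 96.8 ± 18.02 CPM in surgery replicates (0.34 ± 0.30).

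Tnfrsf1b (chromosome 4, 145213463 to 145246870, minus strand), which encodes TNFR2, was highest in T, NK or innate lymphoid cells at 80.8 ± 31.5 CPM. Mature neutrophils had 53.4 ± 22.0 CPM, neutrophil-granulocyte progenitors 44.6 ± 5.11 CPM, monocyte progenitors 35.9 ± 5.16 CPM and basophil-mast cells 30.6 ± 7.14 CPM. The HSC class had 21.0 ± 3.47 CPM, dendritic cells 19.8 ± 16.3 CPM, lymphoid-primed cells 16.8 ± 4.11 CPM, B cells 16.2 ± 4.49 CPM, megakaryocyte cells 15.7 ± 2.92 CPM and eosinophil cells 12.9 ± 9.25 CPM. Erythroid cells were again lowest at 2.12 ± 0.866 CPM. Neutrophil-granulocyte exceeded monocyte progenitors by 0.31 ± 0.15 (SD, log2), and basophil-mast cells exceeded the HSC class by 0.51 ± 0.39, each in 8 of 8 replicates (exact sign-flip permutation test, adjusted p = 0.0352; 2 of 11 neighbouring pairs). For Tnfrsf1b as for Tnfrsf1a, Tnf and Adam10, the highest class exceeded the lowest in 8 of 8 replicates, by 4.67 ± 0.83, 5.26 ± 0.80, 4.24 ± 0.97 and 1.48 ± 0.52 in that order (exact sign-flip permutation test, p = 0.0078, adjusted p = 0.0352).

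Tnfrsf1b levels were higher after surgery in all cells and in both large myeloid classes. Over all cells the sham replicates had 28.6 and 29.97 CPM in batch 1 and 27.4 and 29.7 CPM in batch 2, and the surgery replicates 34.6 and 36.3 CPM and 38.0 and 33.4 CPM. No surgery value fell into the sham range (means 28.9 ± 1.18 and 35.6 ± 2.01 CPM, log2 difference 0.31 ± 0.05, with 0.27 in batch 1 and 0.31 in batch 2). The share of cells in the neutrophil-granulocyte class was 11.2 to 12.2% in sham and 9.75 to 18.3% in surgery replicates. Its part in the all-cell difference was not tested. In monocyte progenitors the sham values of 29.2, 32.9, 29.98 and 34.8 CPM lay below the surgery values of 40.8, 43.5, 36.0 and 39.7 CPM (0.34 ± 0.07). In neutrophil-granulocyte progenitors the sham values of 39.9, 42.4, 40.8 and 39.2 CPM lay below the surgery values of 48.4, 50.6, 52.4 and 42.9 CPM (0.25 ± 0.07), the last less than 1 CPM above the highest sham value.

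None of these 3 differences was past the adjusted threshold, which 0.0415% of genes passed in all cells, 0.0834% in monocyte progenitors and 0.133% in neutrophil-granulocyte progenitors. Genes with every surgery replicate above every sham replicate made up 0.777% of those tested in all cells, 1.05% in monocyte progenitors, 1.19% in neutrophil-granulocyte progenitors and 1.08% in the HSC class, where Adam17 is one of them. Nothing is read from these shares for genes chosen on this contrast. By cluster, the groups were apart for Tnfrsf1b in cluster 2 of the neutrophil-granulocyte class (31.7 ± 1.73 and 41.2 ± 4.72 CPM) and cluster 5 of the monocyte class (31.6 ± 1.15 and 41.3 ± 4.49 CPM), and the surgery mean was the higher one in 21 of 24 clusters. The surgery mean was also the higher one in 10 of 12 classes. HSC class groups overlapped, at 18.8 ± 3.52 and 23.1 ± 1.86 CPM (0.27 ± 0.13), as did those of basophil-mast cells, at 28.1 ± 5.22 and 33.2 ± 8.63 CPM (0.28 ± 0.19). In T, NK or innate lymphoid cells the means ran the other way, at 98.2 ± 29.3 and 63.4 ± 25.3 CPM (-0.53 ± 0.29), with overlapping groups. Markers of B cells were read lower in surgery neutrophil-granulocyte progenitors, 42.4 to 50.8 CPM against 51.3 to 64.9 CPM for the 12 markers summed, and their part in the Tnfrsf1b difference was not tested.

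**Figure D4:**
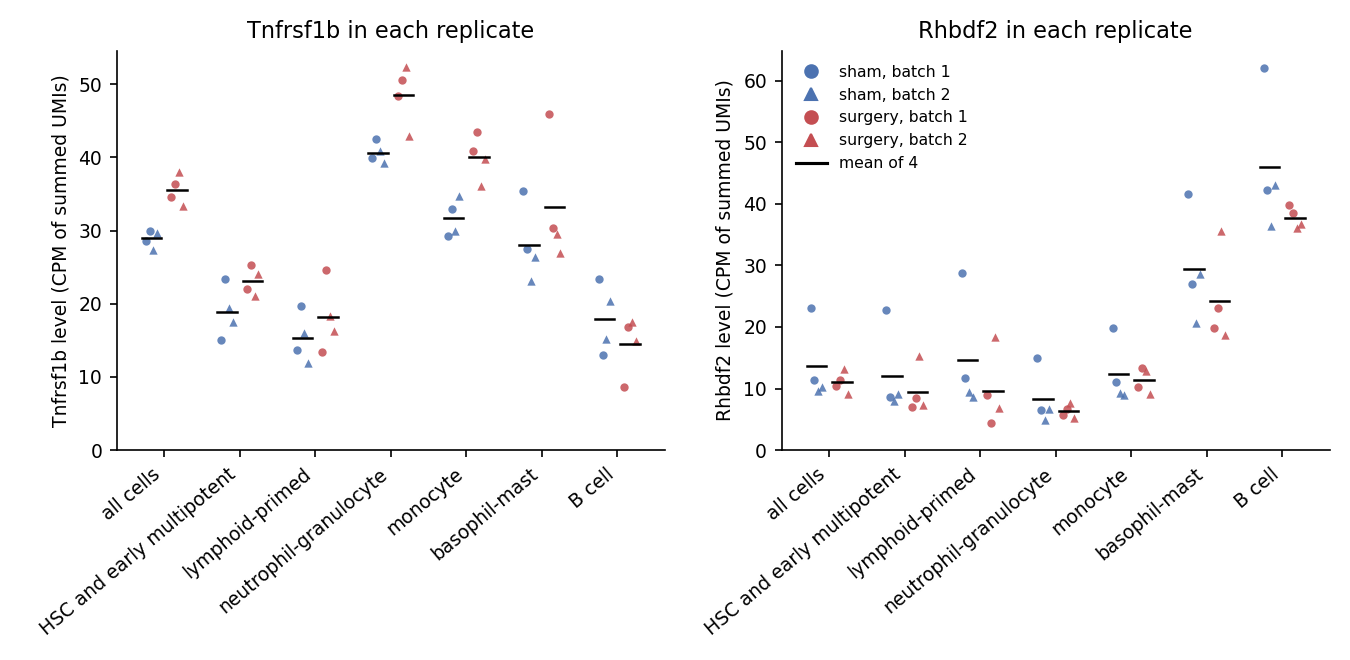
Level of Tnfrsf1b (left) and Rhbdf2 (right) in each of 8 replicates (CPM of summed UMIs, linear axes from 0) for all cells and 6 classes; circles are batch 1, triangles batch 2, and black bars the mean of 4 replicates. For Tnfrsf1b the surgery values lie above the sham values in all cells, neutrophil-granulocyte and monocyte progenitors; for Rhbdf2 the batch 1 sham circle at 23.1 CPM in all cells stands above the 7 others.

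In the remaining comparisons none of the 7 genes was past the threshold. The share of genes that passed was 0.0112% in basophil-mast cells, 0.0103% in B cells, and 0% in mature neutrophils, dendritic, erythroid, megakaryocyte, eosinophil and T, NK or innate lymphoid cells. These 6 classes without a call had 88 to 350 genes at an unadjusted p under 0.05 in edgeR, and DESeq2 called 1 gene in T, NK or innate lymphoid cells and 0 in the other 5.

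**Figure D5:**
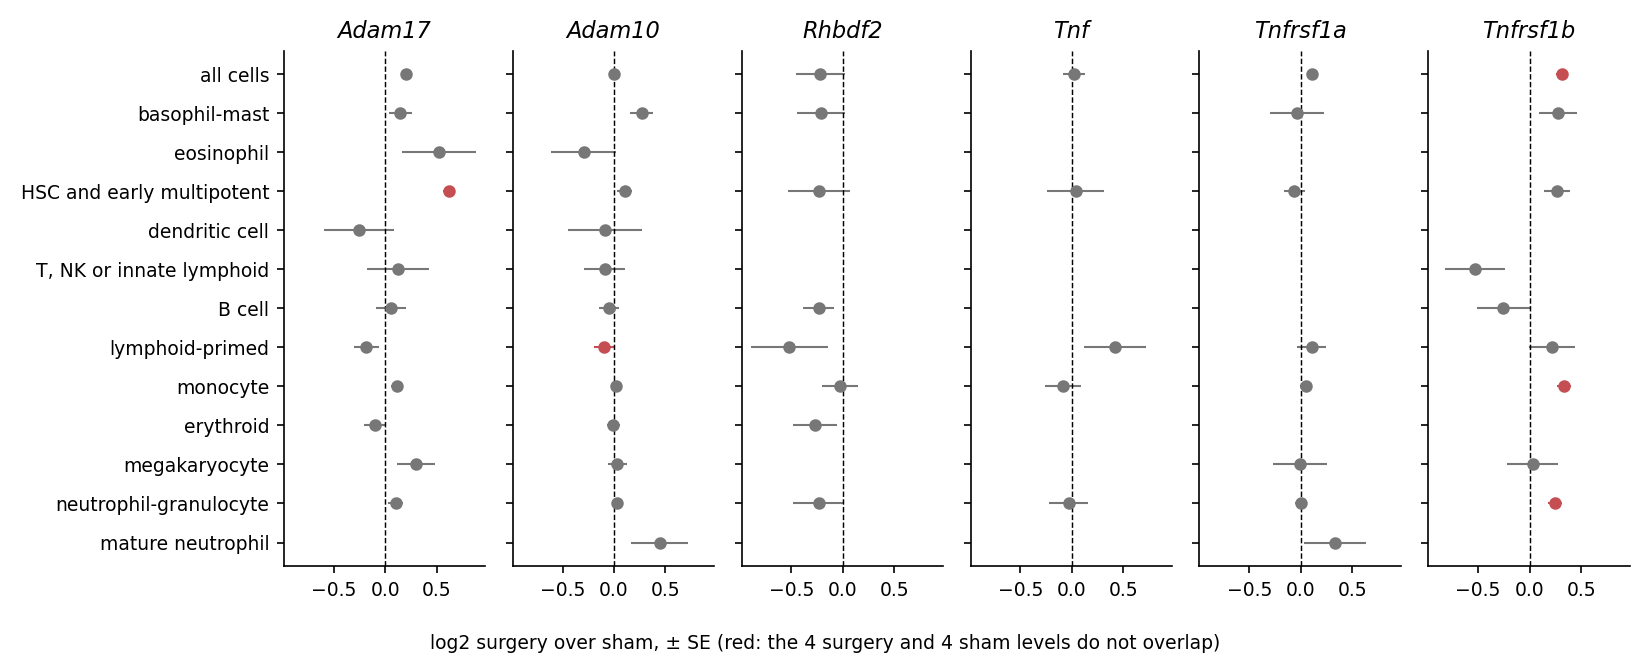
Fitted log2 difference of surgery over sham (horizontal axis; points, with bars of 1 SE) for 6 genes in all cells and 12 classes; a missing point means that the counts were too low to be fitted, and red marks groups that do not overlap. Adam17 in the HSC class (0.62) and Tnfrsf1b in all cells (0.31), monocyte (0.34) and neutrophil-granulocyte progenitors (0.25) are red on the right of 0, and Adam10 in lymphoid-primed cells (-0.10) is red on the left.

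Across classes, both receptor genes and Tnf ran together more than the protease genes did. Over the 12 class means of log2(CPM + 1), Pearson's r was 0.73 between Tnfrsf1a and Tnfrsf1b, 0.76 between Tnf and Tnfrsf1b and 0.70 between Tnf and Tnfrsf1a. It was -0.16 between Adam17 and Adam10, 0.48 between Adam17 and Rhbdf2, and -0.64 between Adam10 and Tnfrsf1a. These are descriptions over 12 classes of the same libraries, which differ in depth and in cell number. All r values of Rhbdf2 in this paragraph include batch 1 sham replicate 1, which changed its order of class means. They were not computed without it. Among 7196 genes with a mean of at least 20 CPM, the patterns most like that of Adam17 were those of Pex6 (r = 0.88), a peroxisome import factor, P2rx4 (0.88), an ATP-gated channel, and Clip1 (0.88), a microtubule linker. For Tnfrsf1b they were Tnip1 (0.95), which encodes an inhibitor of NF-kB signalling that binds A20, Dhrs7 (0.92) and the tetraspanin gene Tspan5 (0.90), a partner of ADAM10. Tspan5 (0.89) was also among the 3 for Tnf, with Osbpl2 (0.91) and the vesicle transport GTPase Rab27a (0.90). For Tnfrsf1a they were Sptssa (0.90), S100a11 (0.90) and Mthfs (0.89), for Adam10 Pot1a (0.92), Usp24 (0.90) and Psip1 (0.88), and for Rhbdf2 Akirin1 (0.87), Phf2 (0.84) and Nedd9 (0.84).

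Other genes of the pathway were read from 6 lists of 138 genes in all, chosen by function. In the HSC class 92 of them could be tested and 0 rose or fell in edgeR's quasi-likelihood test, with 2 higher and 2 lower at an unadjusted p under 0.05, and DESeq2 called 0. Of all 12010 genes tested there, 3.79% had such a p. In all cells 128 were tested and again 0 rose or fell (4 higher and 4 lower at an unadjusted p under 0.05; DESeq2 called 0), beside 4.50% of all 16852 genes at such a p.

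Regulators of the proteases, 14 of 19 tested in the HSC class, had a median log2 difference of 0.02 there, beside 0.00 to 2 decimals for all 12010 genes. P4hb, the protein disulphide isomerase that acts on the ADAM17 fold, had 260 ± 14.1 CPM in sham and 264 ± 15.2 CPM in surgery replicates. Mapk14, the p38 kinase that activates ADAM17, had 222 ± 4.86 and 218 ± 19.96 CPM. Of other ADAM proteases 3 of 10 were tested, with a median of -0.17. Adam15 was at 15.8 ± 2.14 and 14.4 ± 0.98 CPM and Adam9 at 9.75 ± 0.39 and 7.78 ± 1.82 CPM, neither past the threshold.

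The shed substrates had a median of -0.05 over 17 of 28 genes in the HSC class. Kit, the stem cell factor receptor, was at 241 ± 15.4 and 242 ± 16.5 CPM, and Cd44, the hyaluronan receptor, at 209 ± 11.6 and 201 ± 6.02 CPM.

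Of the genes downstream of the receptors 0 passed the threshold in the HSC class. The receptor complexes had a median of 0.02 over 29 of 30 genes. Tab2, an adaptor of the TAK1 kinase, was at 107 ± 4.87 and 106 ± 6.27 CPM, and Map3k5, the kinase ASK1, at 93.8 ± 13.02 and 98.4 ± 14.3 CPM. TNF and NF-kB target genes had a median of -0.04 over 19 of 25 genes. Nfkbia, the NF-kB inhibitor that is itself an early target, was at 237 ± 27.3 and 224 ± 12.2 CPM. Ccl4, a chemokine gene, was at 178 ± 11.5 and 198 ± 7.48 CPM with groups that did not overlap, but was not past the threshold (0.17 ± 0.05; edgeR adjusted p = 0.969). Of the other TNF family ligands and receptors, 13 of 32 were tested with a median of 0.01, among them Cd27 at 72.2 ± 2.42 and 71.1 ± 4.29 CPM and Tnfrsf21, which encodes the death receptor DR6, at 46.1 ± 2.76 and 49.3 ± 2.52 CPM.

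Over all cells the list medians lay between -0.03 and 0.02, beside 0.00 to 2 decimals for all 16852 genes. Named by the same rule there were P4hb (394 ± 11.3 and 428 ± 32.7 CPM), Mapk14 (187 ± 7.47 and 188 ± 19.1 CPM) and Cd44 (241 ± 15.2 and 237 ± 12.4 CPM). Nfkbia (229 ± 34.6 and 217 ± 8.62 CPM) and Nfkb1 (127 ± 4.86 and 124 ± 9.65 CPM) of the target genes also had overlapping groups, and none of these passed the threshold. Transcript levels were measured here, not shedding or protein at the surface.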

How the data were processed

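The deposited matrices held raw UMI counts (whole numbers) for each barcode and gene, made by the authors with Cell Ranger on GRCm38, per the submitters' processing notes; the version, the use of strand and the handling of reads that match several genes are not given in the sources used here. Hashtag lines (22.2% of counts in batch 1, 16.1% in batch 2) were kept out of gene totals. Cells had at least 500 genes, 1000 UMIs, at most 10% mitochondrial UMIs and exactly 1 hashtag with at least 200 counts. Scrublet marked 0.557% and 0.663% of barcodes as doublets, which were removed; of barcodes with several hashtags it marked 9.14% and 16.1%, so doublets remained. In batch 2 the matrix lists hashtags in another order than the label, and names were used; wrong names would exchange the groups of that batch.

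Clustering used 2000 variable genes, 30 components, 15 neighbours and Leiden resolution 1.0 (scanpy 1.11.5). Summed counts were fitted with edgeR 4.0.16 (quasi-likelihood, filterByExpr, TMM, batch as a term, Benjamini-Hochberg adjustment within each comparison) in R 4.3.3; DESeq2 1.42.0 was an alternative. The fit was tested on simulated data with known changes. Class levels were compared by exact sign-flip tests over 8 replicates on log2(CPM + 1), adjusted over 72 tests. The class pairs came from the order of means over the same replicates, a choice that the adjustment does not cover. Intervals for 0 counts cover counting error only. Of 32227 gene identifiers, 32098 were found in GENCODE M21.

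The 7 genes, the gene lists and the comparisons were chosen with earlier results of these data known. Named were all 7 genes; of each list the genes past the threshold, at most 4, or else the 2 with the highest mean; the 3 genes most like each in pattern; and measured genes within 250 kb of Adam17. Alternatives covered scaling, test, low-count filter, batch term, pairing, hashtag minimum, cell filter, thinning, doublets, marker gate, resolution and left-out replicates. 1 gene of the lists that this rule names is not reported here. No per-sample column was left unused.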

Additional observations from a re-analysis of the deposited data

Results flagged for a closer look

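In groups of 4 replicates, 110 groups of the 7 genes' levels were examined for a replicate far from the other 3, and 10 had one; chance gives about 1 in 20, or 6. Of these, 4 were Rhbdf2. Batch 1 sham replicate 1 had 23.1 CPM in all cells (9.68 to 11.3 CPM in the other 3), 22.7 CPM in the HSC class (7.94 to 9.08 CPM) and 28.8 CPM in lymphoid-primed cells (8.64 to 11.6 CPM), and batch 2 surgery replicate 1 had 15.2 CPM in the HSC class (7.06 to 8.41 CPM).

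In basophil-mast cells, Adam17 was at 178 CPM in batch 1 surgery replicate 2 (121 to 129 CPM in the other 3), Adam10 at 145 CPM in batch 2 surgery replicate 2 (106 to 109 CPM), and Tnfrsf1a at 16.7 CPM in batch 2 sham replicate 1 (12.4 to 12.7 CPM). Tnfrsf1a was at 28.6 CPM in batch 1 surgery replicate 2 of the HSC class (35.0 to 36.3 CPM). Adam10 was at 76.6 CPM in batch 1 sham replicate 2 of neutrophil-granulocyte progenitors (70.9 to 71.0 CPM), and Tnfrsf1b at 21.2 CPM in batch 2 surgery replicate 1 of megakaryocyte cells (13.5 to 14.8 CPM).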

How the results depend on the processing

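The Adam17 log2 difference in the HSC class lay between 0.59 and 0.71 over 20 alternatives, a description, since the gene was chosen on this contrast. The value 0.71 came from the class without its cluster 15, added after seeing the data. Over all cells it lay between 0.17 and 0.23 over 17 alternatives and was 0.055 without the HSC class, added later. Tnfrsf1b over all cells lay between 0.26 and 0.34 and passed the threshold in 2 of 17 alternatives, the DESeq2 test and no low-count filter. In monocyte progenitors it passed in 1 of 19, with no filter. This gene too was chosen on this contrast, so nothing is read from these calls.

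The count of genes called in all cells, 7, was 21 with the DESeq2 test, 22 with no low-count filter, 0 with no batch term, 0 with the replicate block, 3 with the stricter cell filter and 4 after thinning; leaving out 1 replicate gave 0 to 8, with 0 for either batch 1 surgery replicate or either batch 2 sham replicate. In the HSC class the count of 11 was 6 with the marker gate, 6 with no batch term, 34 with no filter, 7 at resolution 2.0 and 3 after thinning; leaving out 1 replicate gave 4 to 13, the lowest without batch 2 surgery replicate 2. Without a filter the other classes gave up to 86 calls.

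The 10 neighbouring class pairs fell to 0 after thinning (48 pairs could be tested, smallest adjusted p 0.075) and to 0 without any 1 replicate (0 to 0), where 7 replicates were left and the smallest adjusted p was 0.0562 to 0.0703. After thinning, the difference of Tnfrsf1a between mature neutrophils and monocyte progenitors turned to -0.42. Replicate numbers did not pair the samples: deviations of same-numbered replicates correlated at 0.005 in batch 1 and -0.018 in batch 2. Low counts limit Rhbdf1, Tnf and the classes with fewer than 200 cells. Fewer cells of a type and less RNA per cell cannot be told apart in the all-cell sums.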
